A study of Mus musculus with 10 samples.

Results

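The miR-17 seed family, which takes in miR-20, miR-93 and miR-106, was followed through mouse embryonic stem cells that lack different steps of miRNA production. The members are 10 of the 1907 mature miRNA entries counted in the study, chosen by name: the 5p arms mmu-miR-17-5p, mmu-miR-20a-5p, mmu-miR-93-5p, mmu-miR-106b-5p, mmu-miR-106a-5p and mmu-miR-20b-5p, and the 3p arms mmu-miR-17-3p, mmu-miR-20a-3p, mmu-miR-93-3p and mmu-miR-106b-3p. The species prefix is left out from here on. All 10 passed the filter on low counts. Small RNA was sequenced from E14 cells, a line of 129/Ola background kept on gelatine in serum and LIF, in 5 groups of 2 libraries. Besides wild type cells (WT) there were knockouts of the Microprocessor genes Dgcr8 (Dgcr8_KO) and Drosha (Drosha_KO), of Dicer (Dicer_KO), and of Ago1 together with Ago2 (Ago12_KO). The labels carry passage-like codes for the WT libraries and clone-like codes for the Dicer_KO libraries. For the remaining groups they name no separate cultures or clones, so the p-values reflect the spread between the sequenced libraries alone, which may be technical. Whether it is was not tested, and the 2 Drosha_KO libraries were far apart in some entries, as given below.

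A miRNA gene is transcribed as a long primary transcript. The Microprocessor, made of Drosha and its partner Dgcr8, cuts a hairpin out of it, Dicer cuts the loop from the hairpin, and an Argonaute protein keeps 1 strand of the resulting duplex and usually discards the other. The seed, the stretch at the 5′ end that pairs with target mRNAs, sets most of what a miRNA represses. The miR-17 family is encoded in 3 related clusters, is known for promoting proliferation by repressing cell cycle inhibitors, and shares most of its seed with the miRNAs most typical of mouse embryonic stem cells.

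The 6 guide arms are shown because their identity is the basis of the family and their differences decide whether reads can be told apart. The seed, bases 2 to 8, is in capitals (RefSeq, GRCm38.p6, all 10 members matched).
miR-17-5p: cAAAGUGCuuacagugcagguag
miR-20a-5p: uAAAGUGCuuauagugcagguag
miR-93-5p: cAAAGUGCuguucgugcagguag
miR-106b-5p: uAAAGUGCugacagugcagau
miR-106a-5p: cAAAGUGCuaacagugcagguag
miR-20b-5p: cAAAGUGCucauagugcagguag
The seed is the same in all 6. Counted from 1 at the 5′ end, miR-106a-5p differs from miR-17-5p by the single change U10A, miR-20a-5p differs from it by C1U and C12U, and miR-20b-5p by U10C and C12U. miR-93-5p has 4 differences from miR-17-5p over 23 positions. How the authors assigned reads with mismatches or several matches is not given in the sources used here, so the split between miR-17-5p and miR-106a-5p is uncertain. No member shared all its counts with another entry, and none held only multiples of a number above 1.

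The 6-letter core AAGUGC starts at position 3 in all 6 guide arms. Of 8 stem cell miRNAs of the related list with a RefSeq sequence, 7 carry it at position 2, and miR-302c-3p at position 1. A pair of those with position 2 is shown for comparison, with bases 2 to 8 in capitals.
miR-294-3p: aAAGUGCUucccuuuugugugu
miR-295-3p: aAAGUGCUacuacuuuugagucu

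The 3p arms come from the other side of the same hairpins and are usually discarded. They share no seed with the guide arms. Those of miR-17 and miR-20a differ within the seed, and those of miR-93 and miR-106b differ from both.
miR-17-3p: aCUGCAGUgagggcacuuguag
miR-20a-3p: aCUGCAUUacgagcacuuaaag
miR-93-3p: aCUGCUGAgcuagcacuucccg
miR-106b-3p: cCGCACUGuggguacuugcugc

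In GRCm38, the hairpins of miR-17 (chr14:115043671-115043754) and miR-20a (chr14:115044157-115044263) lie on the plus strand within an exon of the noncoding transcript Mir17hg. Those of miR-93 (chr5:138165523-138165610) and miR-106b (chr5:138165737-138165818) lie on the minus strand in an intron of both overlapping protein-coding transcripts of Mcm7, a gene of the replicative helicase. miR-93 is also covered by an exon of 1 retained-intron transcript of Mcm7. Those of miR-106a (chrX:52742503-52742567) and miR-20b (chrX:52742113-52742192) lie on the minus strand. miR-106a overlaps exons of the noncoding gene Kis2 by at most 5 bases, and miR-20b overlaps no further gene of the annotation. Mir17 and Mir20a are printed because they sit in the same transcript and their products parted in the mutants. Capitals mark the mature arms.
Mir17: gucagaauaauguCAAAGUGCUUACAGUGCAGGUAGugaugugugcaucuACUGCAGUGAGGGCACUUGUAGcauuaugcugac
Mir20a: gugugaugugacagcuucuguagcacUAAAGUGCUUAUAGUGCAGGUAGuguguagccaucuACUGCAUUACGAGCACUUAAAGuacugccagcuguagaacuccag

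Levels are given as CPM, counts per 1000000 counts of all miRNA entries in the library, so they are shares. A lower share cannot be told apart from a larger amount of other entries, nor fewer cells from less RNA per cell. The table holds miRNAs only, so the knocked-out genes were not measured. Totals ran from 37476 to 2357868 counts, and 1 count was worth 0.424 to 0.514 CPM in WT, 2.45 to 4.36 CPM in Dgcr8_KO and Ago12_KO, and 22.1 to 26.7 CPM in Drosha_KO and Dicer_KO. The 2 Drosha_KO libraries differed widely in some entries that are not members. Examples are miR-127-3p at 40000 ± 56420 CPM and miR-410-3p at 4181 ± 5912 CPM (SD, n = 2). Stem cell markers had 126800 to 137200 CPM in WT, with all 6 detected. They had 102600 to 104700 in Dgcr8_KO, 117200 to 126500 in Drosha_KO, 61710 to 70530 in Ago12_KO and 9243 to 10730 in Dicer_KO, and miR-302b-3p had no count in Drosha_KO or Dicer_KO. Of 5 fibroblast markers, miR-214-3p was at 0 in every library, and the summed level of the list was 2524 to 3435 CPM in WT, 2907 to 3025 in Dgcr8_KO, 3923 to 6227 in Drosha_KO, 155 to 374 in Dicer_KO and 1039 to 2105 in Ago12_KO. Of 4 blood markers, 3 had a count in WT, 4 in Dgcr8_KO and 2 in each other mutant. miR-223-3p was at 0 outside Dgcr8_KO and miR-451a in Drosha_KO, Dicer_KO and Ago12_KO, and the list summed to 1104 to 1185 CPM in WT, 786 to 984 in Dgcr8_KO, 2109 to 2733 in Drosha_KO, 374 to 442 in Dicer_KO and 3410 to 6643 in Ago12_KO. Neural markers, miR-9-5p and miR-124-3p, summed to 1223 to 1243 CPM in WT, 1219 to 1492 in Dgcr8_KO, 380 to 595 in Drosha_KO, 160 to 398 in Dicer_KO, where miR-124-3p was at 0, and 327 to 481 in Ago12_KO. Muscle markers reached at most 9.79 CPM and were at 0 in Drosha_KO, Dicer_KO and Ago12_KO, and the liver marker miR-122-5p was at 0 outside Dgcr8_KO, where it reached 2.45 CPM.

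Entries reported to overlap tRNA or rRNA (6 of 8 on the list are in the table) took 1694 to 2624 CPM in WT, 67750 to 71430 in Dgcr8_KO, 31790 to 60830 in Drosha_KO, 12380 to 12640 in Ago12_KO and 249000 to 367200 in Dicer_KO. miR-3963, which is not on that list, took 1920 to 3211 CPM in WT, 23210 to 24010 in Dgcr8_KO, 12480 to 22350 in Drosha_KO, 9043 to 11890 in Ago12_KO and 253800 to 323100 in Dicer_KO. A larger share for these entries lowers every other CPM. Values are therefore also given with reduced totals, which leave out the 6 entries and miR-3963, and with totals that leave out the 6 entries alone. The part of the cell type markers in the results was not tested.

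In WT cells miR-93-5p was the most abundant member, at 3876 and 3871 CPM, which placed it 38th and 39th among all entries. miR-17-5p followed with 1557 and 1625 CPM, miR-106a-5p with 1088 and 1148, miR-20b-5p with 974 and 1029, miR-20a-5p with 764 and 864, and miR-106b-5p with 639.6 and 690.4 CPM. The WT ranges of these 6 arms did not overlap, although each step from miR-106a-5p down to miR-106b-5p was small. The 3p arms were lower. miR-106b-3p reached 449 and 488 CPM, close below its own 5p arm, while miR-17-3p had 161 and 184, miR-93-3p 108 and 128, and miR-20a-3p 38.6 and 72.5 CPM.

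**Figure D1:**
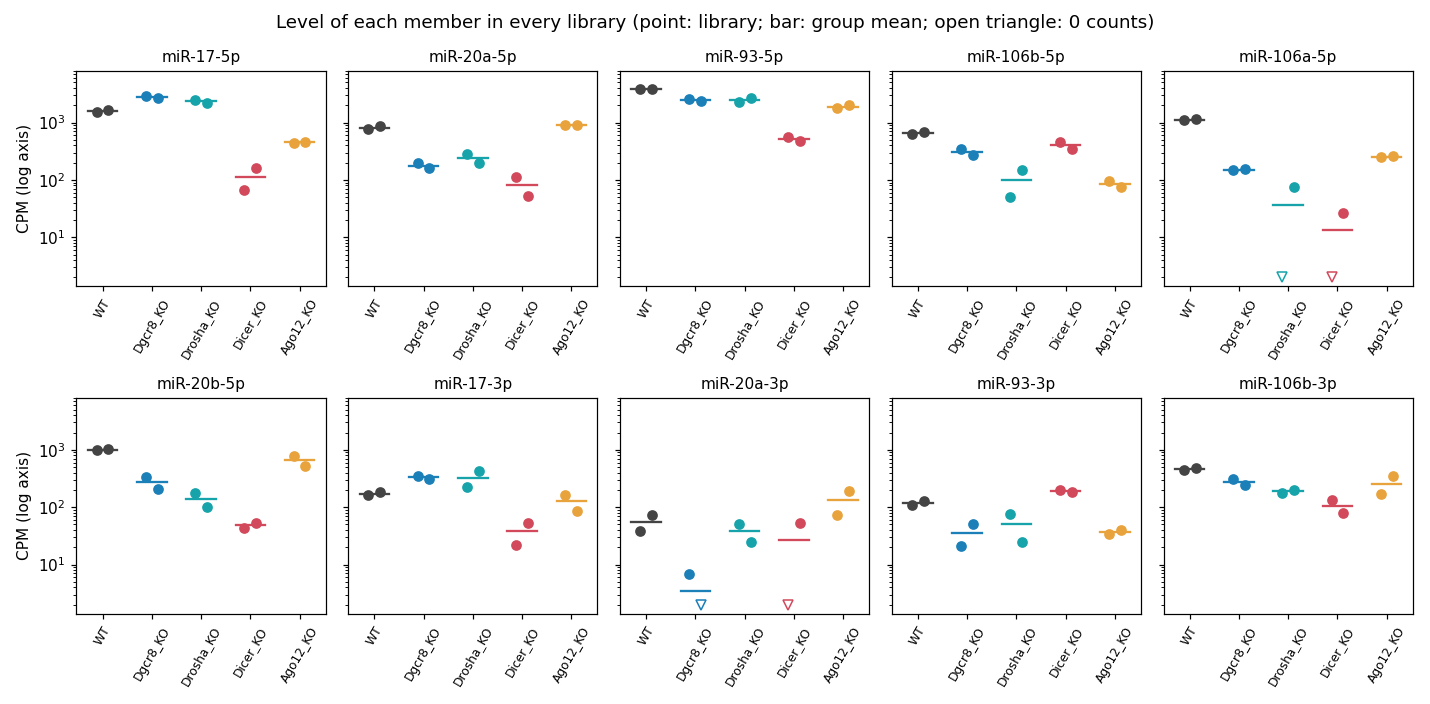
Level of each of the 10 members in CPM on a log axis for every library, by group. Points are libraries, bars are group means and open triangles mark libraries with 0 counts. miR-17-5p sits above WT in both Microprocessor mutants, miR-20a-5p sits close to WT in Ago12_KO and below it in the other mutants, and miR-106b-5p is closest to WT in Dicer_KO.

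The 6 guide arms together held 0.906% ± 0.0231 of all counts in WT (SD, n = 2), 0.616% ± 0.0465 in Dgcr8_KO, 0.531% ± 0.0103 in Drosha_KO, 0.423% ± 0.00226 in Ago12_KO and 0.118% ± 0.00827 in Dicer_KO. Every mutant library was thus below both WT libraries, by 1.47, 1.71, 2.14 and 7.68 times on average in that order. An exact permutation test of 2 against 2 libraries cannot go below p = 0.333, so these shares were not tested. The Dicer_KO shares rest on 56 and 42 counts, and their 95% Clopper-Pearson intervals, which cover counting error only, were 0.0936 to 0.161% and 0.0808 to 0.152%. With reduced totals the Dicer_KO share was 0.293%, and those of Dgcr8_KO, Drosha_KO and Ago12_KO were 0.679%, 0.567% and 0.433%. Those totals leave out 0.361 to 0.584% of the counts in WT but 57.2 to 62.1% in Dicer_KO. The WT share thus hardly moves, and the Dicer_KO share lies less than 7.68 times below it. Without the 6 entries alone the shares were 0.171% in Dicer_KO and 0.662%, 0.557% and 0.428% in the other mutants in that order.

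Loss of Dgcr8, the RNA-binding subunit of the Microprocessor, was the first contrast. The family split. Both arms of miR-17 rose in share, and the other guide arms fell by amounts from 1.55-fold to 7.37-fold. Of the 10 members, 2 were called higher and 7 lower, where 32.4% of the 481 entries tested were called higher, 41% lower and 73.4% in either direction (edgeR's quasi-likelihood test, Benjamini-Hochberg adjusted p under 0.05). The median log2 fold change was -1.38 for the members and -0.41 for all entries tested. Under TMM factors the members split into 0 higher and 8 lower, and with counts left unscaled into 0 and 10, with medians of all entries of -0.71 and -3.02.

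miR-17-5p had 2856 and 2645 CPM in Dgcr8_KO against 1557 and 1625 in WT. Both mutant libraries lay above both WT libraries, and the log2 fold change was 0.79 (SE 0.29, edgeR adjusted p = 0.0304). miR-17-3p moved with it, from 161 and 184 to 352 and 311 CPM (0.94, SE 0.35, edgeR adjusted p = 0.0321). Both calls were lost when any 1 library of either group was left out, at edgeR adjusted p = 0.105 to 0.168 for miR-17-5p and 0.0931 to 0.179 for miR-17-3p, and under TMM factors (0.166 and 0.140), with ranges over all alternatives of 9.93e-07 to 0.168 and 0.00180 to 0.179. Counts left unscaled, which keep the difference in library totals, turned the direction to -1.84 and -1.69.

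miR-20a-5p, from the same transcript, went the other way. Its 197 and 159 CPM in Dgcr8_KO lay far below the 764 and 864 CPM of WT (log2 fold change -2.20, SE 0.30, edgeR adjusted p = 7.76e-05), a call kept in every alternative run. Its 3p arm had 2 counts in Dgcr8_KO replicate 1 and none in replicate 2, against 91 and 141 counts in WT (-4.15, SE 1.03, edgeR adjusted p = 0.00383). Without Dgcr8_KO replicate 2 the miR-20a-3p value was lost as a call (edgeR adjusted p = 0.0512, range 6.51e-06 to 0.0512).

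Of the Mcm7 pair, miR-93-5p had 2608 and 2388 CPM against 3876 and 3871 in WT. The groups did not overlap, but its log2 fold change of -0.63 (SE 0.26, edgeR adjusted p = 0.0490) lay close to the median of all entries. The call was lost without any 1 library of either group (edgeR adjusted p = 0.156 to 0.244), with reduced totals (0.105) and without the 6 tRNA or rRNA entries alone (0.0887), over a range of 8.98e-13 to 0.244. miR-106b-5p went from 639.6 and 690.4 to 342 and 272 CPM (-1.12, SE 0.31, edgeR adjusted p = 0.00697), which did not pass without Dgcr8_KO replicate 2 (0.0877) or WT replicate 2 (0.0588, range 7.57e-07 to 0.0877). miR-93-3p fell from 108 and 128 to 20.7 and 51.4 CPM (-1.65, edgeR adjusted p = 0.00589, lost without Dgcr8_KO replicate 1 at 0.0774, range 5.96e-05 to 0.0774). miR-106b-3p, at 307 and 245 CPM against 449 and 488, did not pass (-0.77, edgeR adjusted p = 0.0628), although it did without either Drosha_KO library (0.0497 and 0.0499) or either Ago12_KO library (0.0123 and 0.0133, range 1.58e-05 to 0.290).

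The X-linked pair fell as well. miR-106a-5p dropped from 1088 and 1148 CPM in WT to 149 and 154 CPM in Dgcr8_KO (log2 fold change -2.88 with SE 0.38, edgeR adjusted p = 6.13e-05). miR-20b-5p dropped from 974 and 1029 to 335 and 210.4 CPM (-1.88, SE 0.33, edgeR adjusted p = 4.51e-04). Neither set of mutant libraries came near WT, and both calls held in every alternative run. miR-106a-5p and miR-17-5p, which are identical but for the base at position 10, thus changed in opposite directions, 7.37-fold lower and 1.73-fold higher in share. Left unscaled, both were lower, at -5.50 and -1.84.

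**Figure D2:**
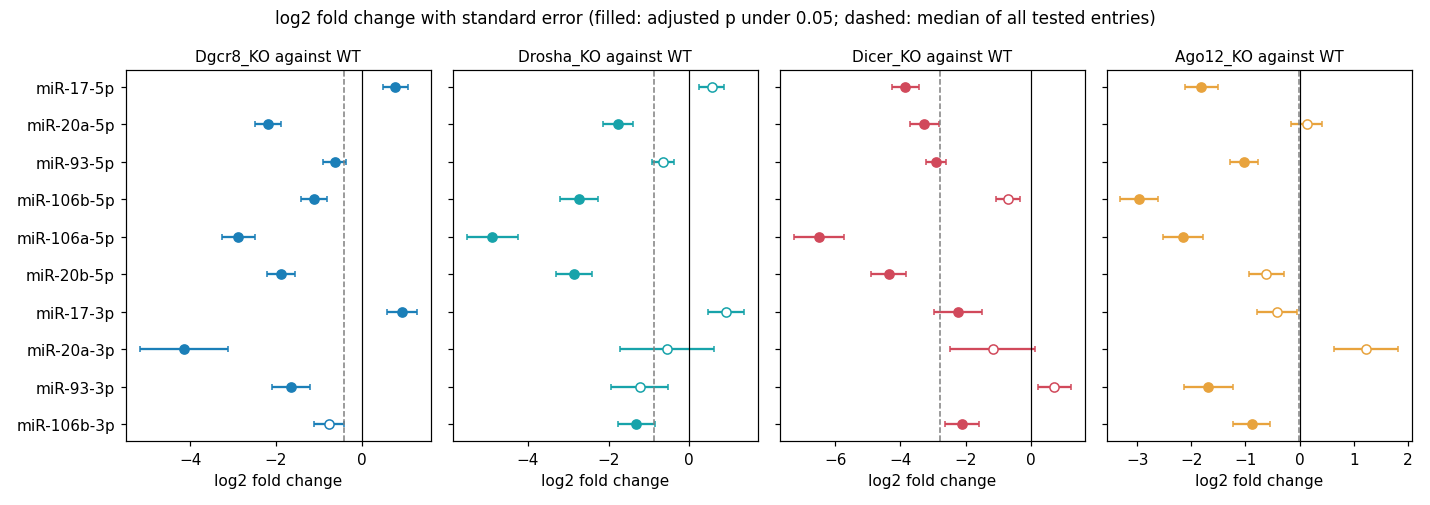
log2 fold change of each member against WT, with its standard error, in the 4 mutants. Filled points passed an adjusted p under 0.05 and dashed lines mark the median of all 481 entries tested. In Dgcr8_KO and Drosha_KO the miR-17 arms lie to the right of 0, and in Dicer_KO miR-106b-5p and miR-93-3p lie well to the right of the dashed line.

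The comparison of Drosha_KO with WT asks the same of the catalytic subunit. By mean level, miR-17-5p and miR-93-5p were the 2 highest guide arms and miR-106a-5p the lowest in both Microprocessor mutants, while the 3 between them stood in a different order in each. No member was called higher and 5 of 10 were called lower, where 26.2% and 31.6% of all entries were (57.8% in either direction). The member median was -1.27 and that of all entries -0.87 (-1.47 under TMM factors). DESeq2 with its own size factors called 1 member higher and 6 lower, and counts left unscaled 0 and 10.

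miR-17-5p had 2480 and 2183 CPM in Drosha_KO, both above the WT values of 1557 and 1625. Its log2 fold change of 0.55 (SE 0.30) did not pass by edgeR (adjusted p = 0.136), but did by DESeq2 with column totals (adjusted p = 0.00645) and with its own size factors (3.06e-04). It was -0.071 under TMM factors and -5.20 with counts left unscaled. The other arm, miR-17-3p, had 228 and 422 CPM (0.91, SE 0.44, edgeR adjusted p = 0.0952). miR-20a-5p, with 11 and 8 counts or 278 and 199 CPM, was lower than in WT (-1.77, SE 0.36, edgeR adjusted p = 0.00154). That call held in every alternative run. miR-20a-3p rested on 2 and 1 counts and was not called (-0.56, SE 1.17, edgeR adjusted p = 0.699).

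miR-93-5p had 2253 and 2680 CPM, below both WT libraries, with a log2 fold change of -0.65 (SE 0.27, edgeR adjusted p = 0.0590). It passed under TMM factors (0.00225), without Dicer_KO replicate 1 (0.0413), without Dicer_KO replicate 2 (0.0416) and by DESeq2 with column totals (0.00170), within a range of 3.69e-07 to 0.239. miR-106b-5p kept only 2 and 6 counts, or 50.6 and 149 CPM, against 1508 and 1342 counts in WT (-2.73, SE 0.47, edgeR adjusted p = 4.22e-04). miR-106b-3p had 177 and 199 CPM (-1.32, SE 0.46, edgeR adjusted p = 0.0306), and this call was lost without any 1 library of either group (0.0689 to 0.110, range 2.95e-07 to 0.110). miR-93-3p, with 3 and 1 counts, was at -1.23 (edgeR adjusted p = 0.154).

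miR-106a-5p had no count in Drosha_KO replicate 1 and 3 counts in replicate 2, against 2566 and 2231 in WT. The fitted log2 fold change was -4.89 (SE 0.63, edgeR adjusted p = 5.72e-05). It was -12.47 without Drosha_KO replicate 2, a value that no count supports, and -3.91 without replicate 1. miR-20b-5p had 7 and 4 counts, or 177 and 99.2 CPM (-2.86, SE 0.45, edgeR adjusted p = 2.27e-04), and its call held in every alternative run.

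Set side by side, Dgcr8_KO and Drosha_KO did not differ by edgeR's test in any member (0 of 10 called, against 5.61% of all entries higher, 8.32% lower and 13.9% in either direction). At an unadjusted p under 0.05 there were 2, miR-106b-5p and miR-106a-5p, and DESeq2 called 1 under each scaling. miR-106b-5p was higher in Dgcr8_KO by 1.61 (SE 0.495, edgeR adjusted p = 0.0523). It passed by DESeq2 with column totals (adjusted p = 0.0321), and by edgeR without Drosha_KO replicate 2 (0.0266) or without either Ago12_KO library (0.0459 and 0.0460), over a range of 1.01e-04 to 0.353. miR-106a-5p was higher by 2.01 (SE 0.77, edgeR adjusted p = 0.108) and passed without Drosha_KO replicate 2 (0.0180, range 2.66e-04 to 0.530). Without that library Drosha_KO had no count of miR-106a-5p, so its fitted 9.59 is a value that no count supports. For miR-17-5p the difference was 0.24 (SE 0.30) and for miR-93-5p 0.018 (SE 0.27), which does not show that the groups act alike. Counts left unscaled called 9 members higher in Dgcr8_KO, whose libraries are deeper.

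The comparison of Dicer_KO with WT asks which members need Dicer. Each guide arm had a lower share than in WT, and only miR-106b-5p was not called lower. Of 10 members 7 were called lower and none higher, against 42.6% and 13.3% of all entries (55.9% in either direction). The member median of -2.57 lay close to the median of all entries, -2.78. DESeq2 size factors moved that median to -1.67 and split the members into 1 higher and 5 lower. DESeq2 with those factors split all entries into 103 higher and 102 lower, in place of 64 and 205. The counts behind these values were few, at most 25 for a member in a library.

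miR-17-5p had 3 and 6 counts, 66.3 and 160 CPM, and was lower than in WT by the largest factor of the autosomal guide arms (log2 fold change -3.85 with SE 0.41, edgeR adjusted p = 1.22e-05). miR-20a-5p had 5 and 2 counts (-3.27, SE 0.44, edgeR adjusted p = 7.21e-05). miR-93-5p had 25 and 18 counts, 553 and 480.3 CPM, against 3876 and 3871 CPM in WT (-2.90, SE 0.30, edgeR adjusted p = 1.14e-05). miR-106a-5p had no count in replicate 1 and 1 in replicate 2, below the floor of 3 counts in each library (edgeR adjusted p = 2.96e-05 against 2566 and 2231 counts in WT). miR-20b-5p had 2 in each, also below that floor, so its fitted value gives no reliable size (-4.36, SE 0.54, edgeR adjusted p = 4.17e-05). The calls of these 5 arms held in every alternative run, but with reduced totals miR-17-5p stood at -2.54, miR-20a-5p at -1.98 and miR-93-5p at -1.60. Without the 6 tRNA or rRNA entries alone they stood at -3.32, -2.76 and -2.38.

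miR-106b-5p stood apart from them. It had 21 and 13 counts in Dicer_KO, 464 and 347 CPM, against 639.6 and 690.4 CPM in WT. Both libraries lay below WT, but the log2 fold change of -0.70 (SE 0.36) did not pass (edgeR adjusted p = 0.119). Its direction turned to 0.59 with reduced totals and to 0.68 with DESeq2 size factors. It did not turn without the 6 tRNA or rRNA entries alone (-0.18, edgeR adjusted p = 0.681). It was called lower under TMM factors (0.0322, range over all alternatives 5.94e-07 to 0.681). miR-93-3p, the discarded arm of the neighbouring hairpin, had 9 and 7 counts, 199 and 187 CPM, above the 108 and 128 CPM of WT (0.71, SE 0.50, edgeR adjusted p = 0.255). It was called higher with reduced totals (2.01, edgeR adjusted p = 0.00912) but not without the 6 entries alone (1.24, edgeR adjusted p = 0.0650, range 1.24e-05 to 0.606).

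miR-106b-3p had 6 and 3 counts (-2.11, SE 0.51, edgeR adjusted p = 0.00472) and miR-17-3p had 1 and 2 counts (-2.24, SE 0.72, edgeR adjusted p = 0.0203). With reduced totals neither passed (-0.82, edgeR adjusted p = 0.255, and -0.95, edgeR adjusted p = 0.390). Without the 6 tRNA or rRNA entries alone miR-106b-3p passed (-1.60, edgeR adjusted p = 0.0243) and miR-17-3p did not (-1.72, edgeR adjusted p = 0.0827). miR-17-3p was also lost without Dicer_KO replicate 1 (0.175) or WT replicate 2 (0.0528). Their ranges over all alternatives were 1.26e-07 to 0.301 and 1.44e-06 to 0.450. miR-20a-3p, with 0 and 2 counts, was not called (-1.18, SE 1.31, edgeR adjusted p = 0.474).

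Dicer_KO and Drosha_KO lack successive steps of the same pathway, so they were also compared directly. Of the 10 members 1 was higher in Dicer_KO and 4 were lower, against 13.5% and 30.4% of all entries (43.9% in either direction), which had a median of -1.03. miR-17-5p was lower in Dicer_KO by the widest margin, 113 ± 66.3 CPM against 2332 ± 210 (SD, n = 2 each, log2 fold change -4.40 with SE 0.42, edgeR adjusted p = 7.51e-06). miR-93-5p was lower as well (-2.25, SE 0.31, edgeR adjusted p = 1.18e-04), and both calls held in every alternative run. miR-106b-5p went the other way, 406 ± 83.1 CPM in Dicer_KO against 99.7 ± 69.5 in Drosha_KO (2.03, SE 0.53, edgeR adjusted p = 0.0100). That call was lost without Drosha_KO replicate 1 (0.0720) or Dicer_KO replicate 1 (0.0585, range 4.00e-07 to 0.0720).

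miR-17-3p was lower in Dicer_KO than in Drosha_KO by -3.15 (SE 0.76, edgeR adjusted p = 0.00629), which did not pass without Dicer_KO replicate 1 (0.0585) and with reduced totals (0.0778), but did without the 6 entries alone (0.0181, range 0.00192 to 0.0850). miR-20a-5p passed narrowly (-1.50, SE 0.54, edgeR adjusted p = 0.0434) and was lost in 18 of 21 alternatives (range 0.0445 to 0.801). miR-93-3p was higher by 1.94 without passing (SE 0.78, edgeR adjusted p = 0.0660), and passed with reduced totals (0.00667) and without the 6 entries alone (0.0282). The split of the members was 2 higher and 2 lower with reduced totals and with DESeq2 size factors, and 2 and 3 without the 6 entries alone.

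The comparison of Ago12_KO with WT asks how the family fares with fewer Argonautes to hold it. The members again parted. miR-17-5p, miR-93-5p, miR-106b-5p and miR-106a-5p fell, while miR-20a-5p and miR-20b-5p were not called. No member was called higher and 6 were called lower, against 28.7% and 25.8% of all entries (54.5% in either direction). The member median was -0.96 and that of all entries -0.016, which TMM factors moved to -0.66. Under TMM factors all entries split into 109 higher and 179 lower in place of 138 and 124.

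miR-17-5p had 444 and 458 CPM in Ago12_KO, well below both WT libraries (log2 fold change -1.82 with SE 0.31, edgeR adjusted p = 4.59e-04). miR-20a-5p from the same transcript had 890.3 and 889 CPM, just above the WT values of 764 and 864 (0.13, SE 0.28, edgeR adjusted p = 0.711), with a sign that turned under TMM factors (-0.52), with DESeq2 size factors (-0.11) and unscaled (-2.76). miR-17-3p had 166 and 87.2 CPM against 161 and 184 in WT (-0.42, SE 0.37, edgeR adjusted p = 0.361, called lower under TMM factors at 0.0366). miR-20a-3p had 74.4 and 192 CPM (1.23, SE 0.59, edgeR adjusted p = 0.0994) and passed without Ago12_KO replicate 1 (0.0245) or with no filter (0.0435), but unscaled it was lower, at -1.73.

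miR-106b-5p had the largest fall of the members, to 94.5 and 74.1 CPM (-2.96, SE 0.35, edgeR adjusted p = 5.57e-05). miR-106a-5p had 246 and 257 CPM (-2.15, SE 0.37, edgeR adjusted p = 5.30e-04). These 2 calls and that of miR-17-5p held in every alternative run. miR-93-5p had 1766 and 2036 CPM against 3876 and 3871 in WT (-1.03, SE 0.27, edgeR adjusted p = 0.00686), and was lost without WT replicate 1 (0.0509) or 2 (0.0525, range 3.86e-39 to 0.0525).

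miR-93-3p fell to 34.4 and 39.2 CPM (-1.68, SE 0.46, edgeR adjusted p = 0.00893, lost without WT replicate 2 at 0.0667, range 4.71e-05 to 0.0667). miR-106b-3p had 169 and 344 CPM against 449 and 488 (-0.89, SE 0.35, edgeR adjusted p = 0.0499), a call lost in 14 of 21 alternatives and at -0.44 without Ago12_KO replicate 1 (0.241, range 1.26e-05 to 0.241). miR-20b-5p had 773 and 532 CPM against 974 and 1029 (-0.61, SE 0.32, edgeR adjusted p = 0.125), and was called lower under TMM factors (0.00556) and with DESeq2 size factors (0.0475, range 4.67e-05 to 0.380).

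Set directly against Dicer_KO, Ago12_KO had 5 members higher and 2 lower, where 38.5% and 8.94% of all entries were (47.4% in either direction) and the median of all entries was 2.38. miR-20a-5p (3.40, SE 0.44, edgeR adjusted p = 8.00e-05) and miR-20b-5p (3.75, SE 0.56, edgeR adjusted p = 2.44e-04) were higher in every alternative run. The miR-20b-5p value rests on 2 counts in each Dicer_KO library, below the floor of 3 counts, so it gives no reliable size. miR-106b-5p was lower in Ago12_KO (-2.26, SE 0.41, edgeR adjusted p = 0.00105), at 84.3 ± 14.4 CPM against 406 ± 83.1 (SD, n = 2 each), except unscaled, where it was 0.55. miR-93-3p was lower too (-2.40, SE 0.59, edgeR adjusted p = 0.00655), lost without Dicer_KO replicate 1 (0.0557) and turned to 0.39 unscaled (range 9.27e-10 to 0.626).

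The higher level of miR-17-5p (2.03, edgeR adjusted p = 0.00256), miR-93-5p (1.88, edgeR adjusted p = 3.94e-04) and miR-106a-5p (4.35, edgeR adjusted p = 0.00289) in Ago12_KO than in Dicer_KO depended on the scaling. With DESeq2 size factors the edgeR adjusted p-values were 0.580, 0.567 and 0.0837, and the members split into 2 higher and 2 lower. miR-106a-5p had 0 counts in Dicer_KO replicate 1 and 1 in replicate 2, below the same floor. Its 4.35 thus gives no reliable size either. All comparisons with WT share the same 2 WT libraries.

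Ratios between members of a library do not depend on its total. Within the guide arms, miR-93-5p held a steady share in every group: 42.8% ± 1.13 of the 6 arms' counts in WT, 43.8% ± 1.26 in Dicer_KO, 44.9% ± 4.26 in Ago12_KO, 40.6% ± 0.545 in Dgcr8_KO and 46.4% ± 4.79 in Drosha_KO (SD, n = 2 each). miR-17-5p held 17.6% ± 0.0778 in WT, 9.82% ± 6.32 in Dicer_KO, 10.7% ± 0.177 in Ago12_KO, 44.7% ± 0.948 in Dgcr8_KO and 44.0% ± 4.80 in Drosha_KO. Its share was thus above WT in all 4 Microprocessor mutant libraries and below WT in all 4 others, although the interval of Dicer_KO replicate 2 (5.43 to 28.5%) reached past WT.

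miR-106b-5p held 7.33% ± 0.209 in WT and 34.2% ± 4.63 in Dicer_KO, but 4.97% ± 0.433 in Dgcr8_KO, 1.87% ± 1.27 in Drosha_KO and 1.99% ± 0.351 in Ago12_KO. The Dicer_KO libraries gave 37.5% (95% Clopper-Pearson 24.9 to 51.5) and 31.0% (17.6 to 47.1). By locus, the Mcm7 pair made up 50.1% of the guide arms in WT and 78.0% in Dicer_KO, the Mir17hg pair 26.5% in WT and 47.6% and 48.5% in Dgcr8_KO and Drosha_KO, and the X-linked pair 23.4% in WT but 6.86% and 3.30% there. With 2 libraries a group these shares were not tested.

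**Figure D3:**
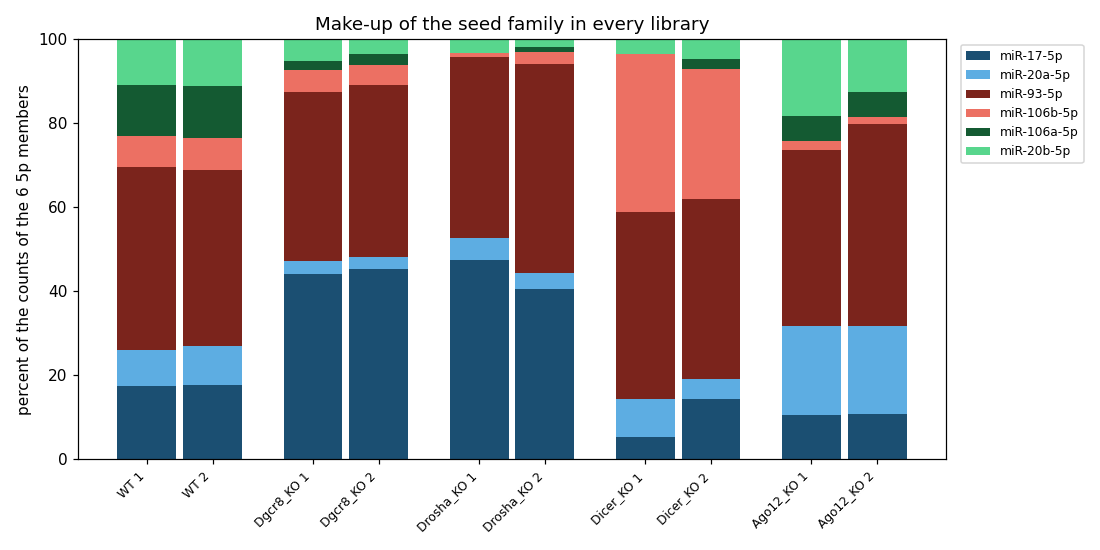
Share of each of the 6 guide arms in their summed counts, in percent, stacked for each library. miR-93-5p keeps a band of similar height throughout, miR-17-5p is widest in the Microprocessor mutants, and miR-106b-5p is widest in Dicer_KO.

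Products of the same primary transcript parted. The ratio of miR-17-5p to miR-20a-5p was 2.04 and 1.88 in WT, 14.5 and 16.6 in Dgcr8_KO, 8.91 and 11 in Drosha_KO, and 0.498 and 0.515 in Ago12_KO. The Microprocessor mutants lay above WT and Ago12_KO below it, with no overlap. In Dicer_KO the ratio was 0.6 and 3, on at most 6 counts of either arm, which lay on both sides of WT. The ratio of miR-93-5p to miR-25-3p, from the same Mcm7 intron, went from 0.379 and 0.385 in WT to 6.51 and 6.22 in Dgcr8_KO and 5.93 and 5.14 in Drosha_KO. It was 1.32 and 0.563 in Dicer_KO and 0.200 and 0.274 in Ago12_KO.

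miR-19b-3p comes from the Mir17hg transcript and has 2 genomic copies, so its counts pool a copy outside that transcript. The ratio of miR-17-5p to it was 0.637 and 0.610 in WT, 7.19 and 9.01 in Dgcr8_KO and 12.3 and 7.33 in Drosha_KO. It was 0.429 and 1 in Dicer_KO, where each entry had at most 7 counts, and 0.193 and 0.367 in Ago12_KO.

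The ratio of miR-93-5p to miR-106b-5p was 6.06 and 5.61 in WT, 1.19 and 1.39 in Dicer_KO, 18.7 and 27.5 in Ago12_KO, 44.5 and 18 in Drosha_KO and 7.63 and 8.79 in Dgcr8_KO. Dicer_KO was thus the only group below WT. The Drosha_KO values rest on 2 and 6 counts of miR-106b-5p.

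**Figure D4:**
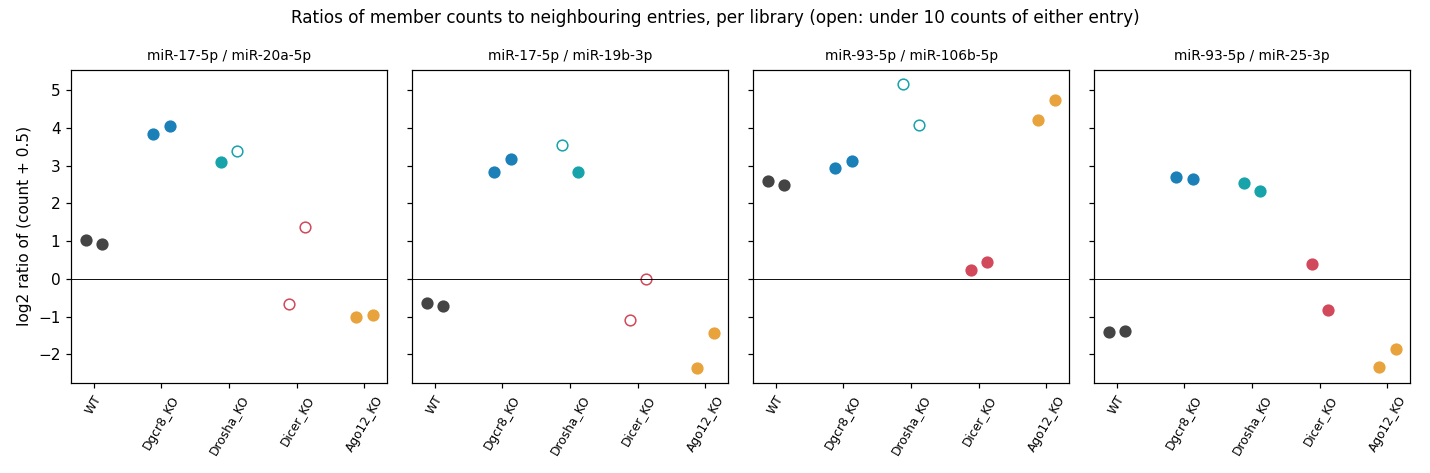
log2 ratio of counts, each plus 0.5, of a guide arm to a neighbouring entry, for every library. miR-19b-3p pools 2 genomic copies. Open points rest on under 10 counts of an entry. The ratios to miR-20a-5p, miR-19b-3p and miR-25-3p are highest in Dgcr8_KO and Drosha_KO, and miR-93-5p to miR-106b-5p is lowest in Dicer_KO.

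Arm balance asks whether the 2 strands of a hairpin changed alike. The log2 ratio of 5p to 3p counts, each plus 0.5, was compared over 84 hairpins by limma. In WT, 5p counts exceeded 3p counts by 9.66 and 8.82 times for miR-17, 19.8 and 11.9 for miR-20a, 35.8 and 30.3 for miR-93, but only 1.42 in both libraries for miR-106b. None of the 4 hairpins was called in Dgcr8_KO (0% of all were lower, 1.19% higher) or Drosha_KO (5.95% lower, 7.14% higher, 13.1% either). At an unadjusted p under 0.05 there was none in Dgcr8_KO and 1 in Drosha_KO, miR-106b (difference -1.49, SE 0.58, limma adjusted p = 0.119), which passed without Drosha_KO replicate 2 (0.0453). The hairpin of miR-20b, whose 3p arm is not a member, was at -1.94 in Drosha_KO (SE 0.79, limma adjusted p = 0.121, unadjusted p = 0.0389). It rested on 7 and 4 counts of the 5p arm against 1 of the 3p arm in each library. Even 7 counts against 0 would give a log2 ratio of 3.91, between the 4.05 and 3.73 of WT. At that depth the ratio had little room but to fall, so the value shows little of its arm balance.

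In Dicer_KO 2 of the 4 were called shifted towards the 3p arm, where 22.6% of all hairpins were, 26.2% the other way and 48.8% either way. The 5p to 3p ratio of miR-93 was 2.78 and 2.57 (difference -3.68, SE 0.62, limma adjusted p = 0.00270, range 1.15e-04 to 0.0277). That of miR-17 was 3 in both libraries, on at most 6 counts an arm (-1.90, SE 0.51, limma adjusted p = 0.0203), and its call was lost without Dicer_KO replicate 1 (0.0549), WT replicate 1 (0.108) or WT replicate 2 (0.0933, range 0.00112 to 0.108). With the 3 counts of miR-17-5p in Dicer_KO replicate 1, even 0 counts of its 3p arm would give a log2 ratio of 2.81. WT had 3.27 and 3.14, so at that depth this library could only fall. The call of miR-17 thus says little of its arm balance. miR-20b was called too (-2.73, SE 0.79, limma adjusted p = 0.0242), on at most 2 counts an arm. In Dicer_KO replicate 1, 2 counts against 0 gave a log2 ratio of 2.32, still below the 4.05 and 3.73 of WT. At that depth the ratio could only fall, so the call of miR-20b shows nothing of its arm balance. miR-106b leaned the other way, to 3.50 and 4.33, without passing (1.33, SE 0.58, limma adjusted p = 0.0954).

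In Ago12_KO 1 of the 4 shifted towards the 3p arm, where 25% of all hairpins did, 16.7% the other way and 41.7% either way. The ratio of miR-106b was 0.559 and 0.215, so its 3p arm was the more counted one (-2.01, SE 0.58, limma adjusted p = 0.0238). The call was lost without Ago12_KO replicate 2 (0.140), WT replicate 1 (0.108) or WT replicate 2 (0.106, range 0.00626 to 0.140). miR-17 had 2.67 and 5.25 (-1.32, SE 0.51, limma adjusted p = 0.0700) and passed without either Drosha_KO library (0.0324 each) or without Ago12_KO replicate 2 (0.0461, range 0.0203 to 0.287).

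**Figure D5:**
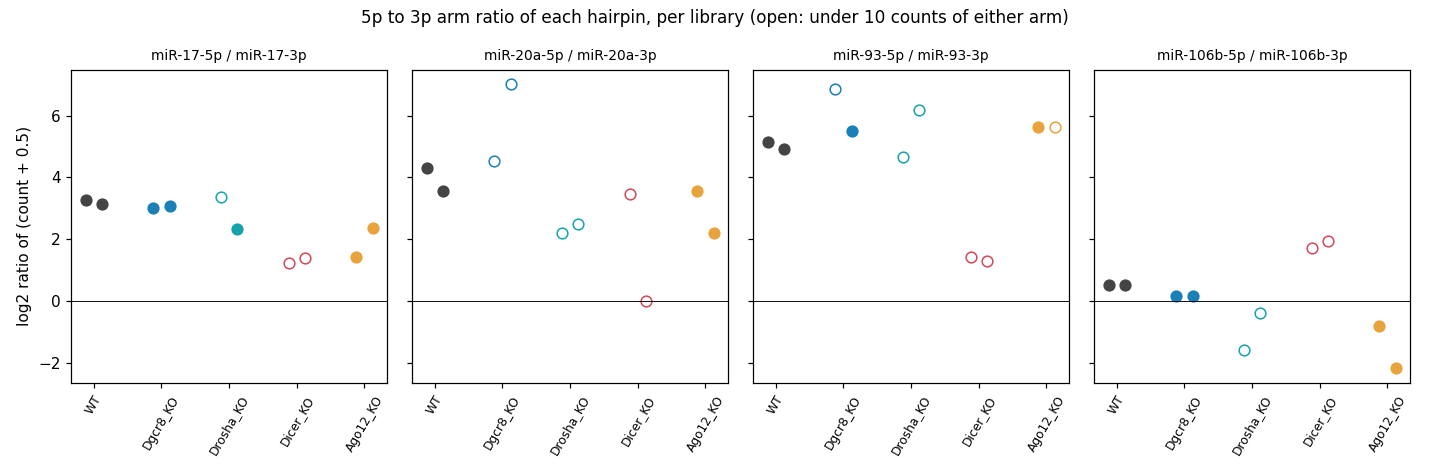
log2 ratio of 5p to 3p counts, each plus 0.5, for the 4 hairpins in every library. Open points rest on under 10 counts of an arm. miR-93 is lowest in Dicer_KO, and miR-106b lies below 0 in Ago12_KO and Drosha_KO.

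The other products of the 3 clusters are 18 entries, of which 16 were tested. They include miR-92a-3p and miR-25-3p, which share a seed of their own, and are named here by abundance. miR-92a-3p, like miR-19b-3p, has 2 genomic copies. In Dgcr8_KO 15 were lower and none higher, where 41% and 32.4% of all entries were. In Drosha_KO 12 were lower and none higher, against 31.6% and 26.2%. The fitted medians of the tested entries were -4.80 and -4.83, and include entries with no count in the mutant (6 and 8 of the 16), whose fitted values are no bound. Those that fell in Dgcr8_KO included miR-92a-3p at -3.56 (edgeR adjusted p = 7.17e-07), miR-25-3p at -4.69 (2.30e-06) and miR-92a-1-5p at -3.69 (5.52e-04). miR-363-3p, from the X-linked cluster, had no count in Drosha_KO, at least 148-fold lower than WT by a floor of 3 counts over the group.

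In Dicer_KO 1 cluster mate was higher and 10 were lower, where 13.3% and 42.6% of all entries were. In Ago12_KO 5 were higher and 6 lower, where 28.7% and 25.8% of all entries were. miR-19a-5p and miR-92a-2-5p, at 14.1 and 11.2 CPM in WT, passed the filter's 38.54 CPM only through Ago12_KO (191 and 140 CPM). miR-19b-1-5p, at 4.57 CPM in WT, passed only through Dicer_KO and Ago12_KO (193 and 121 CPM). For these entries a level above WT there was a condition of being tested, so the counts of higher entries carry little weight. miR-92a-1-5p had 1511 and 2453 CPM in WT and 103200 and 25780 in Ago12_KO, both above WT but far apart (5.02, edgeR adjusted p = 1.62e-04). miR-363-3p was lower (-3.96, edgeR adjusted p = 1.18e-05), while miR-92a-3p (-0.015, edgeR adjusted p = 0.965) was not called. Nor was miR-25-3p (-0.32, edgeR adjusted p = 0.417).

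Of the stem cell miRNAs with the shifted seed, 7 were tested. In Dgcr8_KO 3 were higher and 3 lower, where 32.4% and 41% of all entries were. The numbers were 2 and 3 in Ago12_KO (28.7% and 25.8% of all entries), 4 and 2 in Drosha_KO (26.2% and 31.6%) and 1 and 5 in Dicer_KO (13.3% and 42.6%). miR-302d-3p, at 17.1 CPM in WT, passed the filter only through Ago12_KO (90.8 CPM). A level above WT there was thus a condition of its being tested. miR-294-3p was higher in Dgcr8_KO (0.83, edgeR adjusted p = 0.0347) and lower in Dicer_KO (-3.80, edgeR adjusted p = 6.04e-06). miR-295-3p was lower in both (-0.76, edgeR adjusted p = 0.0140, and -4.16, edgeR adjusted p = 5.00e-07). Entries reported to bypass the Microprocessor were higher in 6 of 6 tested in both Dgcr8_KO and Drosha_KO, where 32.4% and 26.2% of all entries were. miR-344-3p, at 3.33 CPM in WT, passed the filter only through these mutants (142 and 376 CPM). A level above WT there was thus a condition of its being tested. Of the 7 listed, miR-1224-5p was not tested, with 1.79 CPM in WT, 32.45 in Dgcr8_KO and 0 in Drosha_KO. miR-484 went from 1113 CPM in WT to 15600 and 29760, and miR-320-3p from 351 to 8739 and 10710. The change of miR-17-5p in Dgcr8_KO was 1.73-fold.

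Over the 10 libraries, the entries whose log2(CPM + 1) most resembled that of the summed guide arms were miR-124-3p (Pearson r = 0.97, Spearman rho = 0.92), miR-328-3p (0.97 and 0.83), miR-194-5p (0.97 and 0.84), miR-130a-3p (0.96 and 0.90) and miR-542-3p (0.96 and 0.62), of 455 compared. miR-124-3p is 1 of the 2 neural markers. The points share their libraries and depth. Without both Dicer_KO libraries r was 0.76, 0.73, 0.73, 0.86 and 0.68, and 4 of the 5 were at 0 CPM in Dicer_KO.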

How the data were processed

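Small RNA libraries of 5 groups, 2 each, were analysed from the deposited table of counts per mature miRNA entry, which the authors made from reads aligned with Bowtie to mm10, per the submitters' processing notes. How reads with several matches were counted is not given in the sources used here. Groups came from the labels. Whole counts were tested with edgeR 4.0.16 (R 4.3.3) in 1 quasi-likelihood fit of all groups, with column totals as library sizes, a minimum count of 10 and total of 15 (filterByExpr), and Benjamini-Hochberg adjustment over 481 entries. Arm ratios were tested with limma 3.58.1 where both arms had a mean of at least 20 counts. DESeq2 1.42.0, TMM factors, no scaling, other filters, a replicate block and each library left out were alternatives. Shares over totals without 6 entries reported to overlap tRNA or rRNA and without miR-3963 were planned. Fits with those reduced totals, and shares and fits without the 6 alone, were chosen after seeing the data. The members and lists were chosen with earlier results of these data known. All 10 members are named, up to 4 entries of each other list by mean CPM, up to 2 bypass entries, and the 5 entries most like the family. Further entries are named where they limit a result. The scripts were tested on simulated data.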

Additional observations from a re-analysis of the deposited data

How the results depend on the processing

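Of 1470 alternative values for members, 1278 kept their direction and side of the threshold, 89 lost the call, 61 gained it and 42 turned. For arm ratios the numbers were 182, 6, 9 and 3 of 200. The cause of these changes was not tested. Members called, with the lowest and highest number when 1 library was left out, were 7 (6 to 7) in Dicer_KO, 6 (3 to 6) in Ago12_KO, 9 (4 to 10) in Dgcr8_KO and 5 (4 to 6) in Drosha_KO against WT, 0 (0 to 2) for Dgcr8_KO against Drosha_KO, 5 (3 to 5) for Dicer_KO against Drosha_KO and 7 (6 to 8) for Ago12_KO against Dicer_KO. The lowest came without Dgcr8_KO replicate 2 (5 without replicate 1 or WT replicate 2), WT replicate 2 in Ago12_KO, and Drosha_KO replicate 1 or Dicer_KO replicate 1. Unscaled, 10 were called in Drosha_KO and Ago12_KO and 9 for Dgcr8_KO against Drosha_KO. That last count was 1 under TMM factors, DESeq2 with either scaling, reduced totals and totals without the 6 tRNA or rRNA entries alone. Ago12_KO against Dicer_KO gave 4 with DESeq2 size factors in either tool.

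Arm calls were 0 to 1 in Drosha_KO, 1 to 2 in Dicer_KO and 0 to 2 in Ago12_KO with 1 library left out. A pseudocount of 2 gave 1 in Drosha_KO and 2 in Ago12_KO. A minimum of 100 counts gave 1 in Dicer_KO and 2 in Ago12_KO, where miR-93 and miR-20a could not be fitted. The family share with reduced totals, which leave out those 6 entries and miR-3963, was 0.293% in Dicer_KO, 0.433% in Ago12_KO, 0.679% in Dgcr8_KO and 0.567% in Drosha_KO. Without the 6 alone it was 0.171%, 0.428%, 0.662% and 0.557%.

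Log2 differences that turned sign follow. Unscaled, against WT, they were -1.84 (miR-17-5p) and -1.69 (miR-17-3p) in Dgcr8_KO, -5.20 and -4.81 for the same arms in Drosha_KO, -4.95 (miR-93-3p) in Dicer_KO, and -2.76 (miR-20a-5p) and -1.73 (miR-20a-3p) in Ago12_KO. For Dgcr8_KO against Drosha_KO they were 2.67 (miR-20a-5p) and 2.68 (miR-93-3p), and for Ago12_KO against Dicer_KO 0.55 (miR-106b-5p) and 0.39 (miR-93-3p). Under TMM factors miR-17-5p was -0.071 in Drosha_KO and miR-20a-5p -0.52 in Ago12_KO. With DESeq2 size factors in edgeR, then in DESeq2, the values were 0.68 and 0.68 (miR-106b-5p) and 0.20 and 0.24 (miR-20a-3p) in Dicer_KO and -0.11 and -0.11 (miR-20a-5p) in Ago12_KO. For Dgcr8_KO against Drosha_KO they were -0.15 and -0.15 (miR-93-5p) and -0.13 and -0.13 (miR-17-3p), for Dicer_KO against Drosha_KO 0.63 and 0.66 (miR-20a-3p) and 0.45 and 0.46 (miR-106b-3p), and for Ago12_KO against Dicer_KO -0.41 and -0.42 (miR-106b-3p). With reduced totals they were 0.59 (miR-106b-5p) and 0.12 (miR-20a-3p) in Dicer_KO, 0.59 (miR-20a-3p) and 0.41 (miR-106b-3p) for Dicer_KO against Drosha_KO, and -0.043 (miR-106b-3p) for Ago12_KO against Dicer_KO.

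With 1 library left out, Dgcr8_KO against Drosha_KO ranged from -0.10 to 0.15 for miR-93-5p, -0.35 to 0.54 for miR-17-3p and -1.27 to 0.59 for miR-93-3p. All 3 turned without Dgcr8_KO replicate 1 (-0.046, -0.066 and 0.035) or Drosha_KO replicate 1. Dicer_KO against Drosha_KO ranged from -7.58 to 5.96 for miR-106a-5p and -7.58 to 0.50 for miR-20a-3p, turning without Drosha_KO replicate 2 and Dicer_KO replicate 1. The values of -7.58 and 5.96 come from fits that left a group with no count of the entry, so no count supports their size. Arm differences in Drosha_KO ranged from -0.87 to 0.17 for miR-17 and -0.36 to 1.14 for miR-93 (-0.34 with pseudocount 2), turning without Drosha_KO replicate 2.

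Replicate numbers showed little pairing of the libraries: deviations correlated at -0.045 to 0.121 over 10 pairs of groups. Only 1 pair, Drosha_KO with Dicer_KO at 0.121, lay over the threshold of 0.1 set for a replicate block. Low correlations do not show that no step was shared. With the replicate block, members called were 7 in Dicer_KO, 5 in Ago12_KO, 6 in Dgcr8_KO and 5 in Drosha_KO against WT, 0 for Dgcr8_KO against Drosha_KO, 4 for Dicer_KO against Drosha_KO and 7 for Ago12_KO against Dicer_KO. Depth limits Drosha_KO and Dicer_KO most, where 3 counts are 66.3 to 80.1 CPM. The 1 fit of all groups shares their spread, so each p-value draws in part on libraries outside its comparison. Chi-square per degree of freedom between replicates was 3.88 in Dgcr8_KO, 17.2 in Dicer_KO, 24.0 in WT, 31.8 in Drosha_KO and 63.9 in Ago12_KO. With only the 2 groups compared, miR-106b-3p passed in Dgcr8_KO against WT (-0.77, edgeR adjusted p = 0.00478).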
